A study of Daucus carota with 18 samples.

Results

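The P3 interval lies on chromosome 3 of the carrot (Daucus carota), at about 26.6 to 29.8 Mb, and is a genomic region in which purple root pigmentation was mapped. The gene IDs of the carrot annotation run largely in genome order, and the IDs from DCAR_010639 to DCAR_010874 were taken as the interval. A gene that the study places at P3 under a distant ID, such as DcMYB6 (DCAR_000385), is therefore not among them. The 10 genes of this ID range that the study listed as changed between tissues in all 3 of its sample sets were set aside, which left 226 members of the 32113 genes in the files. The members were therefore chosen by position, but the genes set aside had been chosen on the contrast between tissues in these same libraries, so counts of members that differ between tissues are lower than those of the whole interval. Positions of single members were not used here, and "neighbours" means genes with consecutive ID numbers.

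Anthocyanins are flavonoid pigments made in the cytosol and stored in the vacuole, where they colour the tissue purple. In plants their synthesis is switched on by R2R3-MYB transcription factors that act with bHLH and WD40 proteins, and in carrot the P3 interval holds MYB genes of this kind, among them DcMYB7 (DCAR_010745), which is among the 10 genes set aside. Genes that lie close together are inherited together in a segregating family, and close neighbours may also be tandem copies or share a chromatin environment. None of the 226 members carries an annotation in the sources used here (0 IDs matched the RefSeq gene table), so they are named by ID and no function is given for any of them.

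The libraries came from taproots of 3 sets of 3 field-grown roots from sibling F2 families. From each root the outer phloem, which was purple (POP), and the inner phloem, which was not (NPIP), were dissected, which gave 6 groups of 3 libraries and 18 libraries in all. The dP1 set had dark purple outer phloem with non-purple xylem, the dP2 set had dark purple outer phloem with purple xylem, and the pP set had pale purple outer phloem with non-purple xylem. The dP1 and pP roots belonged to 1 F2 family grown at El Centro, California, and the dP2 roots to a sibling F2 family grown at Hancock, Wisconsin, so that in a contrast of dP2 with another set the set, the family and the growing site cannot be told apart. Genotypes of single roots were not used here, and F2 roots of 1 set may carry different alleles.

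Expected counts per library summed to between 6918267 and 9133313, and the members took between 0.473% and 0.624% of them. A group of 9 anthocyanin genes that the study listed from these libraries (chalcone synthase, chalcone isomerase, F3H, F3'H, DFR, 2 glycosyltransferases, a glutathione transferase and DcbHLH3) had a higher summed level in the POP in 9 of 9 roots. Its range was 129 to 8030 CPM in the dP1 POP, 535 to 1330 in the dP2 POP and 177 to 1040 in the pP POP, against 7.4 to 112 over the NPIP libraries. CPM is a gene's count scaled to the size of its library, after TMM normalization. The 3 homologs of the phloem regulator APL had a higher sum in the NPIP in 9 of 9 roots, at 11.3 to 14.6 CPM in pP, 19.9 to 28.3 in dP1 and 58.4 to 86.4 in dP2, and 0.534 to 12.4 CPM over the POP libraries. The 2 secondary cell wall genes (KNAT7 and an IRX15-LIKE gene) had a higher sum in the POP in 9 of 9 roots, at 8.71 to 18.9 CPM in dP1 and pP and 28.4 to 43.7 in dP2, and 0.464 to 6.84 over the NPIP libraries. No gene of these lists lacked reads in a whole group. The APL and cell wall genes too were listed by the study from these libraries, and the IRX15-LIKE gene is among the 10 set aside. The direction of all these sums between tissues thus follows in part from how the genes were chosen. They check the tissue labels only in part. The APL and cell wall sums also stood apart in dP2, and the part of these genes in the results below was not tested. In bulk tissue, fewer cells of a type and less RNA per cell cannot be told apart.

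Somewhat more than every other member was expressed. A gene was called expressed in a group when all 3 libraries held at least 1 CPM, and 129 of the 226 members (57.1%) were expressed in at least 1 group, against 59.9% of all genes. In all 6 groups 86 members (38.1%) were expressed, against 42.2% of all genes. No read was found in any of the 18 libraries for 47 members (20.8%, against 16.4% of all genes), and a further 50 had reads but were expressed in no group. A member without reads was not detectable at these depths, which does not show that it is silent. Stretches of as many IDs as the interval holds gave 51.3% expressed and 22.9% without reads just before it, and 59.3% and 18.6% just after it.

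Members without reads were unevenly spread over the interval. In 4 consecutive blocks of 59 IDs, the number of members without reads was 10 of 55, 8 of 56, 21 of 57 and 8 of 58, and the number expressed in at least 1 group was 34, 30, 27 and 38. The third block (DCAR_010757 to DCAR_010815) thus held 21 of the 47. The longest stretch of IDs expressed in no group ran over 7 IDs, from DCAR_010809 to DCAR_010815, of which 5 had no read. The next ran over 6 IDs just after DcMYB7, from DCAR_010746 to DCAR_010751, all of which had some reads. DCAR_010746, the direct neighbour of DcMYB7, held 0, 3.45 and 1.22 CPM in the dP1 POP and at most 0.12 in the dP1 NPIP. Its counts were not whole in 8 libraries.

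More members were expressed in dP2 than in the other sets. The number expressed was 119 in the dP2 POP and 109 in the dP2 NPIP, against 101 in the POP of both dP1 and pP, 95 in the dP1 NPIP and 97 in the pP NPIP. Among all genes the same order held, at 54.1% in the dP2 POP and between 48.2% and 50.9% in the other groups. Of the members, 19 (8.41%) were expressed in dP2 groups only, against 5.0% of all genes, 2.12% of the stretch before and 6.78% of the stretch after the interval. Only 2 were expressed in dP1 groups only (DCAR_010709 and DCAR_010742) and 1 in pP groups only (DCAR_010855). By tissue, 14 members (6.19%) were expressed in POP groups only, against 5.04% of all genes, and 10 of these were expressed in the dP2 POP alone. In NPIP groups only, 4 members (1.77%) were expressed, against 2.2% of all genes. The heatmap of levels shows these patterns in ID order.

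**Figure D1:**
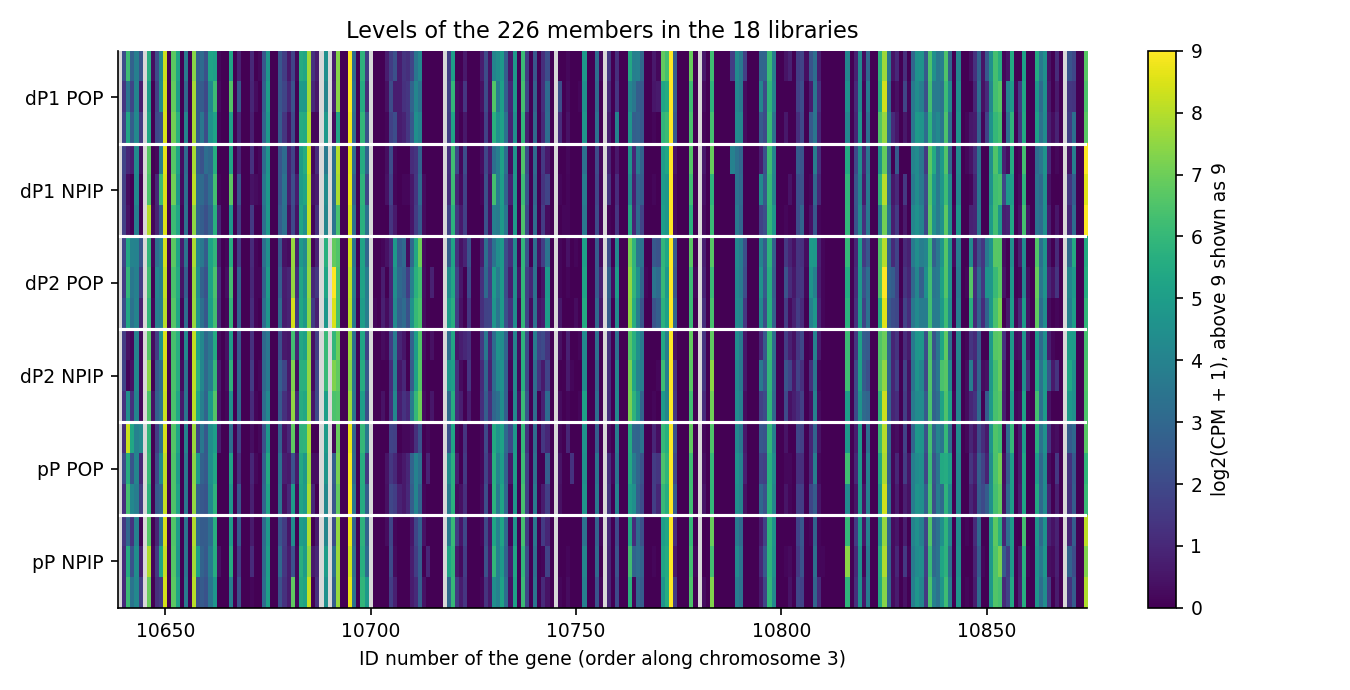
Level of each member, as log2(CPM + 1), in the 18 libraries (rows, 3 libraries per group) against its ID number (columns). Grey columns are the 10 genes set aside. Dark columns that run through all rows include the members without reads in any library, 47 of 226. Members with very few reads look much the same on this scale. Most bright columns run through all 6 groups (86 members expressed in all 6).

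Levels between genes can be compared per length only, and on the deposited TPM scale 5 members led. DCAR_010773 had a mean over the 6 groups of 701 TPM and ranged from 359 to 1180 TPM over libraries. DCAR_010657 had a mean of 462 TPM (316 to 632), DCAR_010650 of 286 (212 to 385) and DCAR_010652 of 208 (169 to 269). These 4 were called in none of the 12 contrasts described below, except that DCAR_010773 passed in 1 alternative fit. DCAR_010695 had a mean of 176 TPM (75.2 to 272) and was lower in dP2, at 127 ± 15 TPM in the POP and 89.5 ± 12.7 in the NPIP (SD, n = 3), against 229 ± 33.9 and 190 ± 0.968 in dP1 and 234 ± 46.0 and 188 ± 20.9 in pP. Together the 5 took between 27.5% and 45.5% of the members' summed CPM in a library.

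The first question was which members differ between the purple outer and the non-purple inner phloem of each set. Each test was edgeR's quasi-likelihood test on rounded expected counts with Benjamini-Hochberg adjustment over all genes tested. A gene was called at an adjusted p under 0.05. Tissue was the only term of these fits, so the POP and NPIP of the same root were not paired. Counts with the root as a block, an alternative that pairs them, are given further below. In dP1, 17 of 110 members tested (15.5%) were higher in the POP, against 11.5% of all genes tested, and 8 (7.27%) were lower, against 7.41%. In dP2, 12 of 128 (9.38%) were higher, against 8.22% of all genes, and 4 (3.12%) were lower, against 3.66%. In pP, 4 of 109 (3.67%) were higher, against 4.89% of all genes, and 1 (0.917%) was lower, against 1.35%. The members' shares, which leave out genes chosen on this same contrast, were thus near those of all genes in every set. Their median log2 fold change was 0.08, 0.07 and 0.04, against 0.00, -0.03 and 0.00 over all genes. With the 10 genes set aside added back, the dP1 counts became 22 (higher) and 11 (lower) of 120 tested. Those of dP2 became 18 and 6 of 138, and the pP counts were 7 and 2 of 119. Each share of this whole interval was above that of all genes given here, and no test compares them.

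These counts moved to different degrees when a library was left out. A fit without a library has fewer replicates, and within a set its filter asked for 1 CPM in 2 libraries. A call lost in such a fit does not by itself show that it depended on that library. In dP1, 13 of the 25 calls held whichever of the 6 libraries was left out, and the count fell to 14 without the POP of root 3 and to 16 without its NPIP. In dP2, 3 of 16 held, and the count was 4 without the POP of root 2 and 8 without the POP of root 3, the NPIP of root 1 or the NPIP of root 2. With the root as a block the dP2 count was 25. In pP none of the 5 held (DCAR_010760, DCAR_010771, DCAR_010795, DCAR_010849 and DCAR_010874). The pP count was 3 without the POP of root 2 or the NPIP of root 2, 1 without the NPIP of root 3, and 0 by edgeR without the POP of root 3 or the NPIP of root 1, where 15 and 23 members had an unadjusted p under 0.05. DESeq2 called 36, 29 and 16 members in dP1, dP2 and pP on all libraries.

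**Figure D2:**
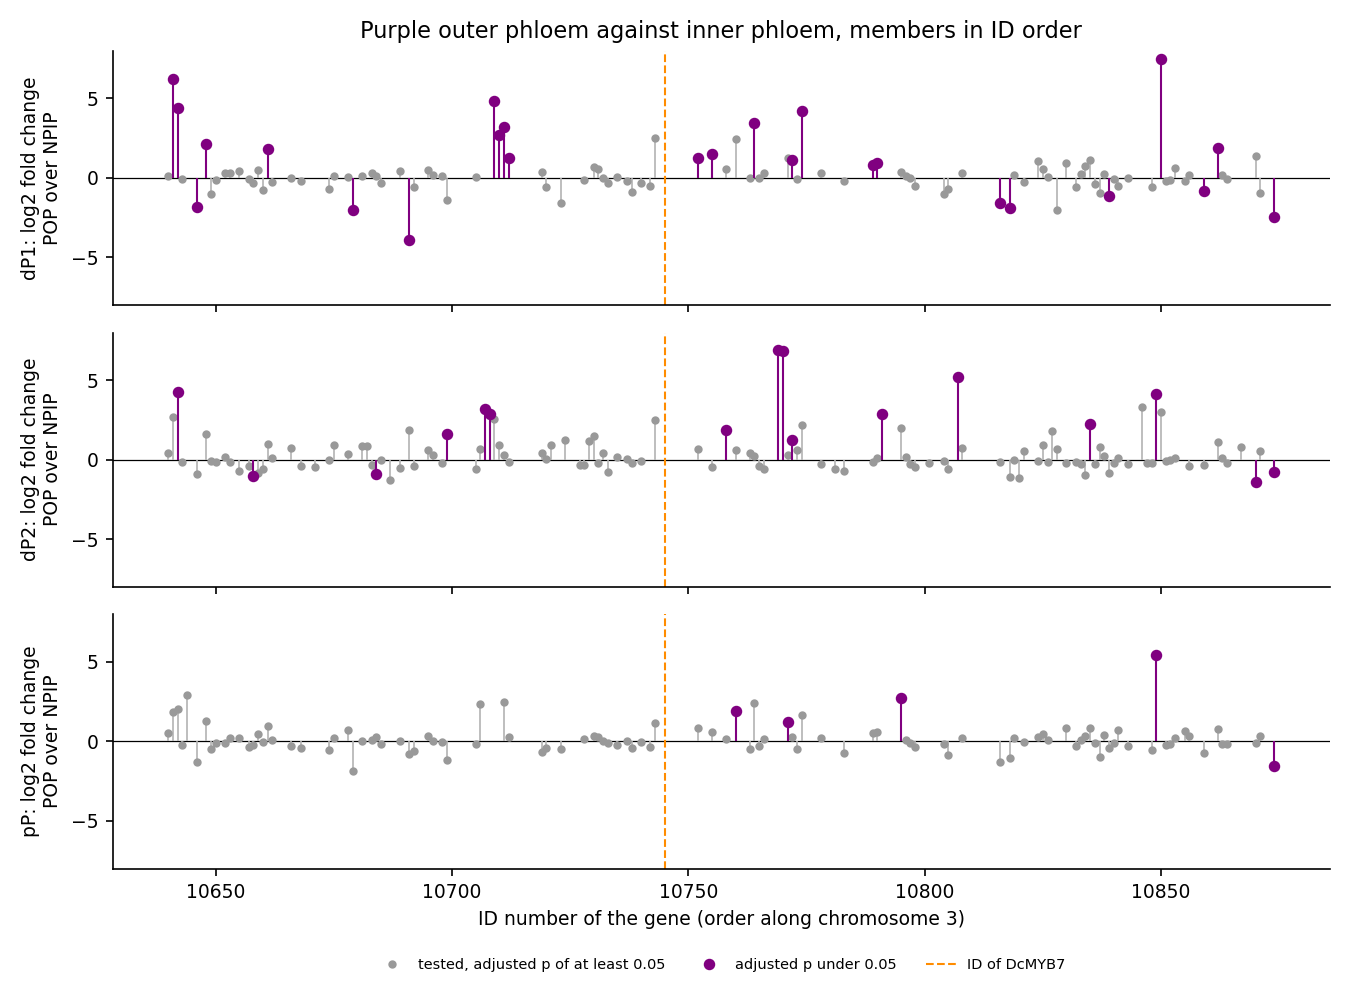
Log2 fold change of POP over NPIP for the members tested in dP1, dP2 and pP (rows) against ID number. Purple points passed the test (25, 16 and 5 members), grey points did not, and the dashed line marks the ID of DcMYB7, which is not itself plotted. Points far from 0 at low counts, such as DCAR_010850 in dP1, are fitted values with no reads in the NPIP and give no bound on the fold.

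Of the 17 members higher in the dP1 POP, 8 lay in 3 runs of consecutive IDs and the other 9 stood alone. Near the start of the interval, DCAR_010641 stood at 71.3, 10.4 and 39 CPM in the dP1 POP of roots 1, 2 and 3 and at 1.04, 0.239 and 0.352 CPM in the NPIP. The tissues did not overlap, and the POP was higher by 6.23 on the log2 scale (SE 0.89, adjusted p = 0.00483). In dP2 the POP held 40.2, 61.3 and 41.1 CPM, and the NPIP 0.336, 0.111 and 21.3, so that the NPIP of root 3 stood near the POP and the difference did not pass the test (adjusted p = 0.275). In pP the POP of root 1 reached 311 CPM and that of roots 2 and 3 held 47.3 and 77.6, while the NPIP held 6.96, 45.7 and 69.5 CPM and overlapped with it (adjusted p = 0.329).

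Its neighbour DCAR_010642 followed DCAR_010641 at a lower level. It held 5.92, 2.67 and 5.24 CPM in the dP1 POP against at most 0.65 in the NPIP, and 15.2, 11.1 and 9.49 CPM in the dP2 POP against at most 1.36 in the NPIP. The tissues did not overlap in either set, and the POP was higher by 4.40 (adjusted p = 0.0233) and 4.28 (adjusted p = 0.0171). The dP1 call was lost without the POP of root 1 or 3 or the NPIP of root 3 (adjusted p up to 0.0808). The dP2 call was lost without the POP of root 2 or 3 or the NPIP of root 2 (up to 0.0684). DCAR_010642 had counts that were not whole in 15 libraries, which means that RSEM divided reads between it and other genes. Its level is uncertain to that extent. DCAR_010644 was also not whole in 15 libraries. In each dP1 and dP2 group the reads of these 2 genes summed to a whole number (111.74 and 52.26 in the dP1 POP), so they shared reads. In the pP POP their 489.51 and 158.5 reads did so with the 3424.99 of DCAR_010641, which was not whole in 2 libraries.

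The second run, DCAR_010709 to DCAR_010712, was the longest run of neighbours called in 1 direction between tissues in any set. DCAR_010711 held 10.4, 15.9 and 21.5 CPM in the dP1 POP and 1.56, 1.68 and 2 in the NPIP, a difference of 3.20 on the log2 scale (SE 0.36, adjusted p = 0.00225). DCAR_010709 had 39 reads in the dP1 POP and 1 in the NPIP, a ratio of 38.7 with an exact 95% interval for counting error of 6.54 to 1570. DCAR_010710 held 2.63, 6.35 and 4.51 CPM against 1.17, 0.479 and 0.47, and DCAR_010712 held 16.8, 9.92 and 15.7 CPM against 6.11, 7.42 and 4.82. In all 4 the POP libraries lay above the NPIP libraries without overlap. The calls of DCAR_010710 (adjusted p = 0.0163) and DCAR_010712 (adjusted p = 0.032) were lost without some libraries: for the first the POP or the NPIP of root 3 (up to 0.0725), and for the second the POP of root 1 or 3 or the NPIP of root 1 or 3 (up to 0.107). DCAR_010710 and DCAR_010711 had counts that were not whole in 15 libraries each, and in 13 of them the 2 counts summed to a whole number, so these neighbours shared reads and are not independent of each other. Their sum, on which a division between the 2 has no bearing, was 13, 22.3 and 26 CPM in the dP1 POP and 2.73, 2.15 and 2.47 in the NPIP. Over the dP1 POP their 114.15 and 397.64 reads did not sum to a whole number, but did so with the 39.21 of DCAR_010709. In the pP POP the same held for 99.65 and 271.13 reads, with the 18.22 of DCAR_010709. DCAR_010709 thus shared reads with this pair, and the sums in the dP1 POP and the pP POP are uncertain to that extent.

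Of the other dP1 calls that held whichever library was left out, DCAR_010774 stood at 5.65, 5.68 and 4.88 CPM in the POP and at 0.39, 0.239 and 0.235 in the NPIP (log2 difference 4.19, adjusted p = 0.00171). DCAR_010764 stood at 13.8, 10.9 and 5.61 CPM against 1.04, 0.838 and 0.94 (3.43, adjusted p = 0.00349). DCAR_010862 stood at 44.1, 26.3 and 33.3 CPM against 8.32, 9.94 and 9.98 (1.90, adjusted p = 0.00389). None of the 3 overlapped between the dP1 tissues, and none passed the test in dP2 (adjusted p = 0.0619, 0.522 and 0.107) or pP (0.12, 0.239 and 0.0968). DCAR_010661 was also higher in the dP1 POP, by 1.84 (adjusted p = 0.00873), and DCAR_010752 and DCAR_010755 are described with DcMYB7.

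DCAR_010850 had 63 reads in the dP1 POP, at 4.47, 1.11 and 2.32 CPM, and no read in the NPIP. The POP was thus at least 20.8-fold higher, taking a floor of 3 reads over the NPIP libraries. Without the POP of root 1, which gave 34 of the reads, the bound was 13.8-fold.

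Members lower in the dP1 POP were fewer. DCAR_010691 held 0.658, 0.78 and 0.244 CPM in the dP1 POP and 8.19, 8.74 and 9.98 in the NPIP, a fall of 3.94 on the log2 scale (SE 0.44, adjusted p = 0.00231). DCAR_010679 held 2.1, 2.67 and 1.59 CPM against 7.93, 9.7 and 9.16, and fell by 2.04 (adjusted p = 0.00639). DCAR_010816 fell by 1.60 (adjusted p = 0.00389). These 3 calls held whichever library was left out. DCAR_010646 held 50.8, 31.5 and 40.4 CPM against 103, 90.6 and 253, also without overlap, but its call (-1.84, adjusted p = 0.0246) was lost without the POP of any of the 3 roots (up to 0.0924).

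In dP2 the calls that held whichever library was left out were DCAR_010707, DCAR_010769 and DCAR_010770, all higher in the POP. DCAR_010769 stood at 4.59, 9.94 and 3.97 CPM in the dP2 POP and had 1 read in the NPIP, a ratio of 163 (exact 95% interval 28.8 to 6470). DCAR_010770 stood at 3.98, 8.03 and 5.53 CPM, also against 1 read, a ratio of 155 (27.4 to 6170). In the other sets both were low in the POP, at 0.122 to 2.19 CPM for DCAR_010769 and 0 to 1.61 for DCAR_010770, and neither passed the filter on low counts there. Their counts were not whole in the same 6 libraries, where they summed to whole numbers, so this pair also shared reads. Their sum was 8.57, 18 and 9.49 CPM in the dP2 POP and at most 0.114 in the NPIP.

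DCAR_010807 and DCAR_010835 were higher in the dP2 POP as well. DCAR_010807 held 29, 24.5 and 14.2 CPM against 0.112, 1.33 and 0.341 in the NPIP (5.21, adjusted p = 0.0106), and DCAR_010835 held 16.1, 21.5 and 12.7 against 3.36, 2.78 and 4.66 (2.22, adjusted p = 0.011). Neither overlapped between tissues, and both calls were lost without the POP of root 2 alone (adjusted p = 0.0517 for each). The members lower in the dP2 POP changed less. DCAR_010870, the neighbour of the IRX15-LIKE gene that was set aside, held 7.36, 16.1 and 13.7 CPM in the POP and 31.6, 39.5 and 26.7 in the NPIP, and fell by 1.40 (adjusted p = 0.0387). DCAR_010658 and DCAR_010684 fell by 1.02 (adjusted p = 0.037) and 0.88 (adjusted p = 0.0455). The calls of these 3 were lost without most of the 6 libraries: without any but the NPIP of root 3 for DCAR_010870 and DCAR_010658 (up to 0.126 and 0.132) and without any for DCAR_010684 (up to 0.154).

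Few members were called in more than 1 set. Of 41 members called in at least 1 set, 37 were called in 1, 3 in 2 and 1 in all 3, and none was called with both signs. Over all genes called in at least 1 set, 70.8% were called in 1, 22% in 2 and 7.13% in all 3, but the genes set aside had been chosen for changing in all 3 sets, so the choice of members itself lowers the number of shared calls. With them added back, 39 of 50 genes were called in 1 set, 6 in 2 and 5 in all 3. A call missing in a set does not show that the sets differ. DCAR_010874, the last ID of the interval, was lower in the POP of every set, at 99.3, 88 and 104 CPM against 541, 384 and 679 in dP1, 43.6, 46.4 and 60.2 against 80.3, 93 and 87.9 in dP2, and 99.1, 58.3 and 68.4 against 272, 157 and 243 in pP. No set overlapped, and it fell by 2.44 (adjusted p = 0.0018), 0.79 (0.0322) and 1.56 (0.029). The dP2 call was lost without any library but the POP of root 3 (up to 0.125), and the pP call without the POP of root 2 or 3 or the NPIP of root 1 or 3 (up to 0.116).

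DCAR_010772 was higher in the POP of dP1 (79.6, 45 and 70.1 CPM against 38.2, 26.3 and 25.5) and of dP2 (38.4, 27.1 and 32.7 against 13, 13.3 and 15.5). It rose by 1.14 (adjusted p = 0.0314) and 1.24 (0.0151), with no overlap in either set. In pP the groups stood at 48.7, 58.4 and 47.4 and at 38.4, 44.7 and 47 CPM, close together but without overlap. The dP1 call was lost without the POP of root 1 or 3 or the NPIP of root 2 or 3 (up to 0.105), and the dP2 call without the POP of root 3 or the NPIP of root 2 (up to 0.0605). DCAR_010849 was called higher in the POP of dP2 and pP at low counts, with 38 reads against 2 (ratio 20.8, exact 95% interval 5.37 to 178) and 56 against 1 (60.2, 10.4 to 2420). Those calls (adjusted p = 0.0312 and 0.0193) were lost without 5 of 6 libraries in dP2 (all but the NPIP of root 2, up to 0.124) and 4 of 6 in pP (the POP of root 3 and each NPIP, up to 0.0865).

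The other pP calls were modest in level. DCAR_010760 held 13, 10.3 and 14.7 CPM in the pP POP against 3.02, 3.99 and 3.04 (1.93, adjusted p = 0.0131). DCAR_010771 held 63.8, 87.2 and 65.5 against 31.7, 37.1 and 24.2 (1.23, adjusted p = 0.0265), and DCAR_010795 held 4.54, 2.68 and 7.1 against 0.58, 1.05 and 0.487 (2.74, adjusted p = 0.0321). None overlapped. The first was lost without the POP of root 3 or the NPIP of root 1 (up to 0.0666), the second without any library but the NPIP of root 2 (up to 0.102) and the third without any but the POP of root 2 (up to 0.13) and with the root as a block (0.0899).

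Read over roots and without a test, the POP was above the NPIP of the same number in all 9 roots for 22 of the 137 members tested over the 18 libraries (16.1%), against 11% of all genes tested there, and below it in all 9 for 10 (7.3%), against 8.46%. These counts pair the pP libraries by number, which is in doubt for roots 1 and 3. With those numbers exchanged in the pP NPIP, 24 members were higher in all 9 roots, including all 22, and 9 were lower, 8 of them among the 10. The 22 included DCAR_010641, DCAR_010642, DCAR_010709, DCAR_010772, DCAR_010774 and DCAR_010862.

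The second question was whether members differ between the sets in the same tissue. All 18 libraries entered 1 fit, in which 137 members and 20253 genes were tested. Between the sister sets dP1 and pP, which share family and site and differ in pigment, few differed. In the POP 2 members were higher in dP1 (1.46%), against 0.676% of all genes, and 0 were lower, against 0.657%. By edgeR 10 had a lower level in dP1 at an unadjusted p under 0.05, and DESeq2 called 4 lower and 3 higher. In the NPIP 3 members were higher in dP1 (2.19%, against 2.08% of all genes) and 4 lower (2.92%, against 2.49%).

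Against dP2 the counts were far larger, for members and for all genes alike. In the POP, 33 members (24.1%) were higher in dP2 than in pP, against 17.6% of all genes, and 10 (7.3%) lower, against 13.5%. Against dP1, 35 (25.5%) were higher in the dP2 POP, against 18.8%, and 14 (10.2%) lower, against 14.7%. In the NPIP, 30 members (21.9%) were higher in dP2 than in pP, against 18.9%, and 15 (10.9%) lower, against 16.3%. Against dP1, 39 (28.5%) were higher in the dP2 NPIP, against 22.4%, and 19 (13.9%) lower, against 18.9%. The contrasts with dP1 and pP share the dP2 libraries.

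In each of these 4 contrasts the members leaned towards dP2. Their median log2 fold change was 0.29 and 0.28 in the POP (against pP and dP1) and 0.35 and 0.37 in the NPIP, where that of all genes was 0.04, 0.05, 0.03 and 0.07. No test compares the members with other genes here. The lean was largest in the middle of the interval. In the POP against dP1 the medians of the 4 blocks were 0.21, 0.64, 0.28 and 0.18, and in the NPIP 0.32, 0.39, 0.73 and 0.16. Leaving out the dP2 POP of root 2 lowered the POP counts to 25 (against pP) and 32 (against dP1) from 43 and 49. DESeq2 called 45, 54, 51 and 62 members in the 4 contrasts, in the order given above.

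The 2 tissues gave overlapping lists, from separate libraries of the same roots. Of the members that differed between dP2 and dP1, 28 were called in both tissues, which is 57.1% of the POP list and 48.3% of the NPIP list, and all 28 had the same sign in both, 20 of them higher in dP2. Over all genes 66.0% and 53.5% of the lists were shared, and 4416 of 4470 shared genes kept the sign. Of the members that differed between dP2 and pP, 27 were called in both tissues, which is 62.8% of the POP list and 60% of the NPIP list, against 64.3% and 56.9% over all genes. All 27 had 1 sign, as had 4011 of 4055 over all genes, and 21 were higher in dP2. This overlap was thus near that of all genes. In all 4 contrasts 20 members were called (14.6%), close to the 13.8% of all genes, and 16 of them (80.0%) were higher and 4 lower in dP2, where 58.5% of the genes called in all 4 were higher.

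**Figure D3:**
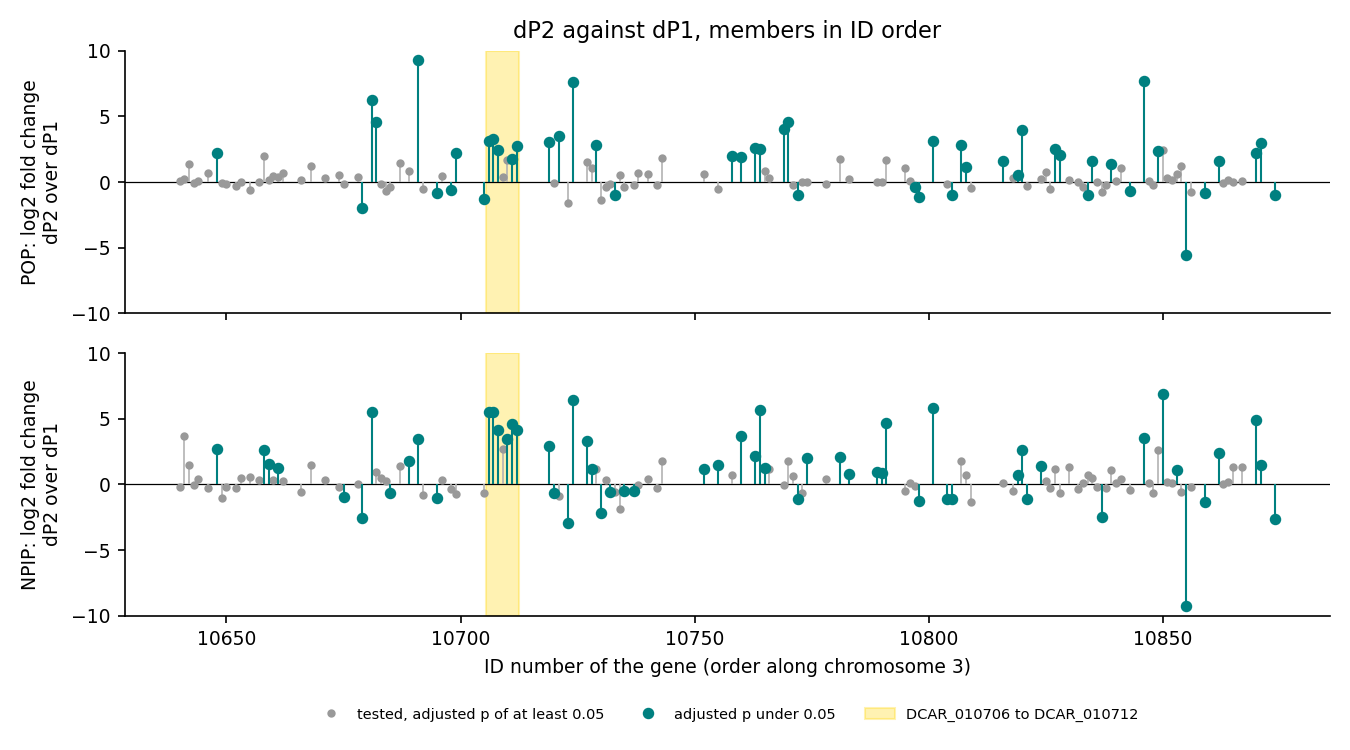
Log2 fold change of dP2 over dP1 for the members tested, in the POP (top) and the NPIP (bottom), against ID number. Teal points passed the test (49 and 58 members), grey points did not, and the shaded band holds DCAR_010706 to DCAR_010712, all above 0 in both tissues. The lowest point, DCAR_010855 in the NPIP, is a fitted value with no reads in dP2.

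Neighbours higher in dP2 lay together from DCAR_010706 to DCAR_010712 (all but DCAR_010709 were called in the NPIP against dP1), the same stretch that held the dP1 run between tissues. DCAR_010706 held 27.2, 20.6 and 19 CPM in the dP2 POP and 11.9, 12.8 and 16.9 in the dP2 NPIP. In dP1 it held 3.68, 0.668 and 3.41 CPM in the POP and at most 0.587 in the NPIP, and in pP 2.27, 1.07 and 2.19 in the POP and at most 0.73 in the NPIP. No library of dP1 or pP reached those of dP2. It was higher in dP2 than in dP1 by 3.11 in the POP (adjusted p = 0.00118) and by 5.54 in the NPIP (adjusted p = 4.51e-05), and higher than in pP by 3.58 (0.000588) and 5.27 (7.73e-05).

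DCAR_010712, at the other end, showed the same order at a higher level and with less spread. It held 127, 78.5 and 87.5 CPM in the dP2 POP and 92, 101 and 128 in the dP2 NPIP, against 16.8, 9.92 and 15.7 and 6.11, 7.42 and 4.82 in dP1, and 3.87, 9.25 and 6.16 and 5.8, 5.25 and 5.35 in pP. The dP2 libraries lay above all others, with log2 differences of 2.78 and 4.13 over dP1 (adjusted p = 2.43e-05 and 1.35e-06) and 3.92 and 4.29 over pP (3.14e-06 and 1.29e-06). All counts of DCAR_010706 and DCAR_010712 were whole, so neither shared reads with another gene, and their 8 calls held whichever library was left out.

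Between them, DCAR_010707 and DCAR_010708 shared reads in 10 libraries, and their sum was 13.2, 13.4 and 13.9 CPM in the dP2 POP and 1.35, 1.44 and 2.16 in the dP2 NPIP. The sum was 2.24, 2.12 and 1.46 CPM in the dP1 POP, 0.134, 0.804 and 1.36 in the pP POP, and at most 0.12 in the NPIP of both. DCAR_010710 and DCAR_010711 summed to 49.9, 65.6 and 86.5 CPM in the dP2 POP and 37.2, 40.5 and 75.4 in the dP2 NPIP. In the pP POP they summed to 1.6, 21.2 and 21.0, with the limit from reads shared with DCAR_010709. Both pairs were thus highest in dP2 in each tissue. Taken alone, DCAR_010711 was called in all 4 contrasts, but in the POP against dP1 (1.72, adjusted p = 0.03) its call was lost without the dP1 POP of root 1 or 2 or the dP2 POP of root 2 or 3 (up to 0.104). DCAR_010709 did not differ in the same way, with 0.241, 2.17 and 3.72 CPM in the dP2 POP overlapping 1.32, 1.67 and 1.71 in the dP1 POP. A shorter cluster, DCAR_010763 to DCAR_010765, was also higher in dP2 in both tissues, with DCAR_010763 at 101 to 186 CPM over the 6 dP2 libraries and 16.9 to 77 over the other 12. Of its 3 members DCAR_010765 was not called in the POP against dP1, and the call of DCAR_010763 in the NPIP against pP (1.17, adjusted p = 0.0173) was lost without the pP NPIP of root 1 or 3 (up to 0.0755). The POP calls of DCAR_010764 were lost against pP (2.03, adjusted p = 0.0299) without any library but the pP POP of root 3 (up to 0.0997), and against dP1 (2.49, 0.0111) without the dP1 POP of root 3 (0.0502). DCAR_010765 lost its call in the NPIP against dP1 without the dP1 NPIP of root 2 or 3 or the dP2 NPIP of root 3 (up to 0.0679), and in the POP against pP without the pP POP of root 3 or the dP2 POP of root 2 (up to 0.103).

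**Figure D4:**
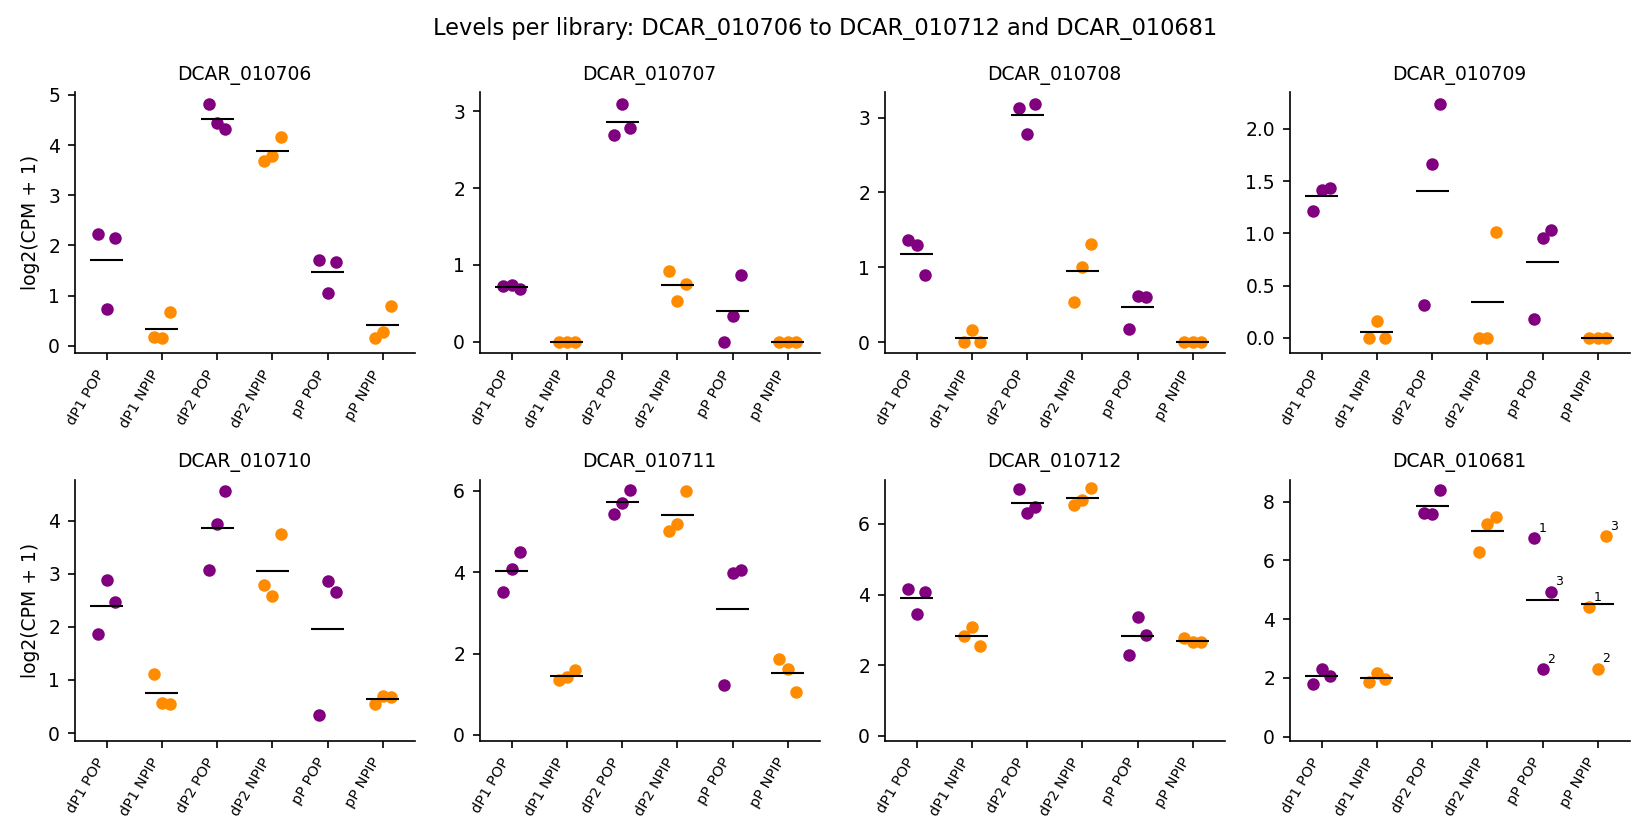
Log2(CPM + 1) of each library for the 7 neighbours DCAR_010706 to DCAR_010712 and for DCAR_010681, by group (purple, POP, and orange, NPIP, with the mean as a line). DCAR_010706, DCAR_010711 and DCAR_010712 are highest in both dP2 tissues. In DCAR_010681 the pP libraries carry their root numbers and spread over the whole range between the dP1 and the dP2 levels.

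Several single members separated dP2 from the other sets more widely. DCAR_010691 held 114, 602 and 360 CPM in the dP2 POP and 61.4, 153 and 85.5 in the dP2 NPIP, and at most 9.98 CPM in each of the 12 other libraries. It was higher in dP2 than in dP1 by 9.28 in the POP (SE 0.99, adjusted p = 2.08e-05) and by 3.48 in the NPIP (adjusted p = 0.00163). Against pP it was higher by 6.72 (8.9e-05) and 4.06 (0.000831). DCAR_010846 held 19, 94.6 and 49.5 CPM in the dP2 POP and 1.68, 13.4 and 1.02 in the NPIP, where the other POP libraries reached at most 1.61 and the other NPIP libraries at most 0.822. Its call in the NPIP against dP1 (3.55, adjusted p = 0.0176) was lost without the dP1 NPIP of root 1 or 2 or the dP2 NPIP of root 2 (up to 0.186).

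DCAR_010724 had reads in dP2 alone. It held 3.86, 3.06 and 1.68 CPM in the POP and 1.35, 1.67 and 0.682 in the NPIP, and no read in the 12 libraries of dP1 and pP. The dP2 POP was thus at least 23.6-fold higher than the dP1 POP and at least 23.4-fold higher than the pP POP, and the dP2 NPIP at least 10.1-fold and 10.8-fold higher, each against a floor of 3 reads over the group. No member met the stricter rule of at least 1 CPM in all 6 libraries of a set and no read in the 6 of another, which 51 genes of the whole series met between dP2 and dP1 and 58 between dP2 and pP.

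Members lower in dP2 included DCAR_010798, DCAR_010855, DCAR_010695 and DCAR_010772. DCAR_010798 held 5.79, 5.35 and 5.89 CPM in the dP2 POP and 8.52, 7.77 and 7.27 in the dP2 NPIP, below each dP1 and pP library of the same tissue, which held 9.63 to 18.9 in the POP and 15.1 to 25.3 in the NPIP. It fell by 1.17 and 1.26 against dP1 (adjusted p = 0.00205 and 0.000716) and by 1.51 and 1.43 against pP (0.000408 and 0.000378). DCAR_010855 was nearly absent in dP2, with 0, 0 and 0.481 CPM in the POP and no read in the NPIP. In dP1 it held 0.395, 15.2 and 8.78 CPM in the POP and 0.26, 26.8 and 0.822 in the NPIP, and in pP 7.88, 4.56 and 7.1 and 8.35, 1.89 and 2.31. The dP1 roots thus ranged widely, with root 2 high and root 1 low in both tissues, and the NPIP of dP1 was at least 84.5-fold higher than that of dP2. Of the 233 reads behind this bound 224 came from root 2, and without it the bound was 4.95-fold. That NPIP call against dP1 (adjusted p = 0.0109) was lost without the dP1 NPIP of root 2 (0.0958), and each of its other 3 calls (0.0276 to 0.0464) was lost without any of at least 4 of the 6 libraries. These were the pP NPIP of root 1 and each dP2 NPIP in the NPIP against pP, and every library but the dP1 POP of root 1 in the POP, up to 0.137.

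DCAR_010681 varied most among the pP libraries. It held 196, 190 and 340 CPM in the dP2 POP and 76.8, 152 and 179 in the dP2 NPIP, and between 2.5 and 3.9 in each dP1 library. In the pP POP it held 107, 3.89 and 29.6 CPM in roots 1, 2 and 3, and in the pP NPIP 20.1, 3.99 and 112. The dP2 and dP1 libraries did not overlap (log2 difference 6.23 in the POP, adjusted p = 0.00138, and 5.49 in the NPIP, 0.00182). In pP, root 2 was at the dP1 level in both tissues, and the high and middle values stood in roots 1 and 3 in opposite order in the 2 tissues. The numbering of the pP roots is in doubt over all genes as well: across the tested genes the deviation of the POP of root 1 from its group mean correlated with that of the NPIP of root 3 (r = 0.611) and not with that of root 1 (r = -0.25). Whether numbers were exchanged was not tested.

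Between dP1 and pP the members called in both tissues were DCAR_010837 and DCAR_010679, both higher in dP1. DCAR_010837 held 22, 12.3 and 13.7 CPM in the dP1 POP against 6.28, 4.15 and 3.55 in pP, and 43.9, 26.2 and 22.7 against 6.61, 7.57 and 14.2 in the NPIP. It did not overlap in either tissue and was higher by 1.78 (adjusted p = 0.0416) and 1.71 (0.025). DCAR_010679 held 2.1, 2.67 and 1.59 CPM against 0.401, 0.67 and 0.313 in the POP, and 7.93, 9.7 and 9.16 against 1.97, 1.68 and 1.46 in the NPIP, higher by 2.19 (0.0468) and 2.38 (0.00967). The NPIP call of DCAR_010679 held whichever library was left out. The POP calls were lost without any of the 6 libraries for DCAR_010679 (up to 0.202) and without any but the dP1 POP of root 2 for DCAR_010837 (up to 0.182), whose NPIP call was lost without the dP1 NPIP of root 1 or the pP NPIP of root 1 or 2 (up to 0.126). The other NPIP calls were DCAR_010874, higher in dP1, and DCAR_010641, DCAR_010642, DCAR_010719 and DCAR_010862, lower in dP1. The calls of DCAR_010641 (-6.21, adjusted p = 0.0415) and DCAR_010642 (-4.51, 0.0432) were lost without any library but the pP NPIP of root 1 (up to 0.131 and 0.133), and that of DCAR_010862 (-1.39, 0.0205) without the dP1 NPIP of root 1 or 3 or the pP NPIP of root 3 (up to 0.0987). Among these DCAR_010874 was higher by 1.25 (adjusted p = 0.0135), and that call was lost without the dP1 NPIP of root 1 or 3 (up to 0.0553). The count of 7 in the NPIP fell to 1 without the dP1 NPIP of root 1, to 2 without that of root 3 and to 4 without the pP NPIP of root 3. The count of 2 in the POP fell to 1 or 0 without any library.

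The third question was whether the difference between tissues differs between sets. For dP1 against pP no member passed the test, where 0.0148% of all genes did, 10 members had an unadjusted p under 0.05 by edgeR, and DESeq2 called 0. For dP2 against pP no member passed either, against 1.11% of all genes, with 18 at an unadjusted p under 0.05 and 0 by DESeq2. With the root as a block DCAR_010773 passed there, without the pP POP of root 1 DCAR_010711, and without the pP NPIP of root 2 DCAR_010764. For dP2 against dP1, 4 of 137 members passed (2.92%), against 2.42% of all genes.

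Of these 4, DCAR_010691 was lower in the dP1 POP than in the NPIP and stood above it in dP2 (114, 602 and 360 CPM against 61.4, 153 and 85.5), and the tissue differences differed by 5.80 (adjusted p = 0.021). In dP2 the tissues overlapped and the difference did not pass the test by itself (adjusted p = 0.113). DCAR_010721 held at most 0.244 CPM in the dP1 POP and 2.86, 0.958 and 1.76 in the NPIP, and 1.45, 2.42 and 2.04 against 0.448, 1.33 and 1.25 in dP2 (4.37, adjusted p = 0.0452). DCAR_010755 held 8.42, 7.58 and 9.27 CPM in the dP1 POP against 3.12, 2.75 and 3.17, and 5.31, 4.97 and 7.45 against 9.31, 6.77 and 8.53 in dP2 (-1.95, adjusted p = 0.0333). In DCAR_010874 the fall in the POP was larger in dP1 than in dP2 (1.67, adjusted p = 0.0301). None of the 4 held in every fit without 1 of the 12 libraries. DCAR_010691 was lost without the dP1 POP of root 1 or 3 or the dP2 POP of root 2 (up to 0.0601). DCAR_010874 was lost without 8 libraries (both dP1 tissues of roots 1 and 3, the dP2 POP of roots 2 and 3 and the dP2 NPIP of roots 1 and 2, up to 0.0736). DCAR_010755 was lost without 9 (all dP1 libraries but the POP of root 2, and both dP2 tissues of roots 1 and 2, up to 0.0817). DCAR_010721 was lost without any but the 2 dP1 libraries of root 2 (up to 0.117). With the root as a block DCAR_010755 (0.053) and DCAR_010721 (0.0844) also missed the threshold. The count was 0 by edgeR without the dP1 POP of root 1 or the dP2 POP of root 2 (23 at an unadjusted p under 0.05 in each), 1 without the dP1 POP of root 3, the dP1 NPIP of root 1 or 3 or the dP2 NPIP of root 1 or 2, 2 without the dP2 POP of root 1 or 3, and 8 without the dP1 POP of root 2.

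Within 10 IDs of DcMYB7 lay 20 members. Of these, 8 were expressed in at least 1 group, where 57.1% of the 226 members and 59.9% of all genes were. In all 6 groups 5 were expressed, where 38.1% of members and 42.2% of all genes were. No read was found for 3 (DCAR_010744, DCAR_010753 and DCAR_010754), where 20.8% of members and 16.4% of all genes had none. Under 1 CPM in every library were 9. No test compares these 20 with other genes. DcMYB7 itself held 2.63, 37.0 and 14.9 CPM in the dP1 POP, 2.40 to 4.56 in the POP of the other sets and at most 3.71 in the NPIP. Of the 20, DCAR_010752 and DCAR_010755 were called between tissues, both higher in the dP1 POP. Over all members tested in dP1 15.5% were called higher there, and over all genes 11.5%. DCAR_010752 held 28.1, 21.8 and 25.1 CPM against 9.1, 12.6 and 10.9 (1.23, adjusted p = 0.0104), and DCAR_010755, given above, was higher by 1.5 (adjusted p = 0.0117). Both calls held whichever library was left out. DCAR_010743 was above its NPIP library in all 9 roots but was called in no set. In dP2 it held 9.9, 27.7 and 31.4 CPM in the POP against 1.57, 2.55 and 7.96 (adjusted p = 0.072), without overlap.

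The members whose level over the 18 libraries was most like that of DcMYB7 were DCAR_010730 (Pearson r = 0.66), DCAR_010709 (0.61), DCAR_010652 (0.58), DCAR_010774 (0.58) and DCAR_010855 (0.57). These are descriptions over 18 libraries that share roots, tissues and sets. DCAR_010730 and DCAR_010855 also followed DcMYB7 in the deviations from the 6 group means (r = 0.82 and 0.77), while DCAR_010774 did not (-0.19). DCAR_010730 held 15.6, 92.1 and 51 CPM in the dP1 POP and 8.45, 78.5 and 13.6 in the dP1 NPIP, in both tissues in the same order of roots as DcMYB7. In root 2 its NPIP level was near its POP level, where DcMYB7 held 3.71 CPM in the NPIP against 37.0 in the POP.

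The last question was whether neighbours move together. Over the 87 pairs of members with consecutive IDs, the median Pearson r of log2(CPM + 1) over the 18 libraries was 0.21 (quartiles -0.17 and 0.52). It was 0.09 for members 2 to 5 IDs apart, 0.04 for 6 to 20 IDs and 0.03 beyond. Over all 14119 consecutive pairs of the files it was 0.08, and for pairs 50 tested genes apart -0.01. After the 6 group means were taken out, the median of the adjacent members was 0.05, against 0.07 over all consecutive pairs. The correlation among neighbouring members was thus mostly one of group means, and in the deviations its median was no larger than over all consecutive pairs, although the upper quartile (0.36 against 0.33) and the share of pairs with r over 0.7 (5.75%, which is 5 pairs, against 4.45%) were slightly higher. Pairs share libraries and genes, so these are descriptions.

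**Figure D5:**
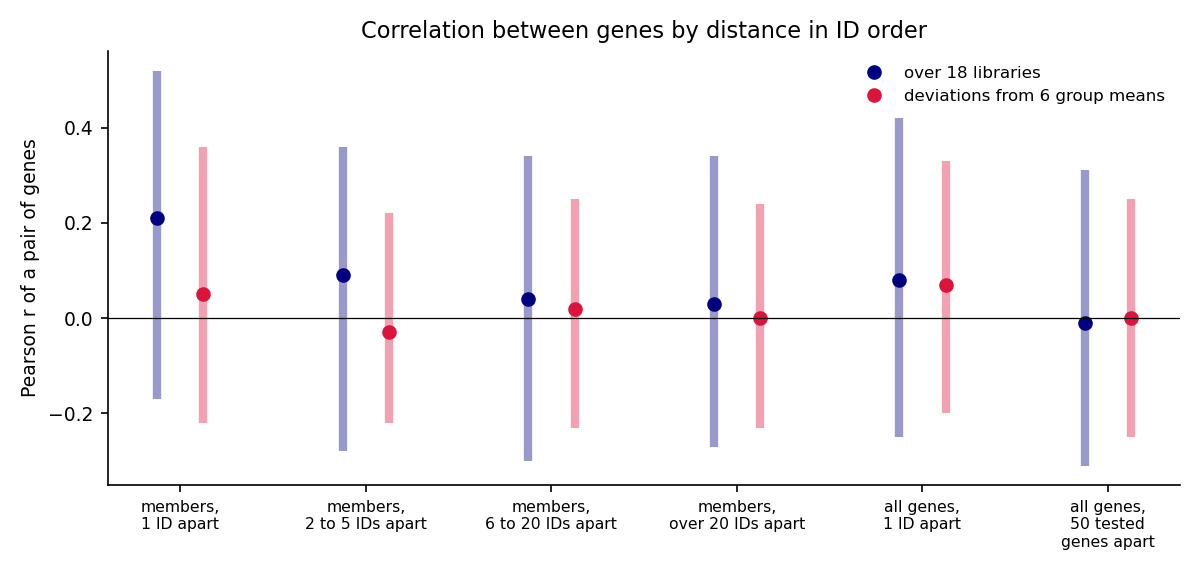
Median (point) and quartiles (bar) of Pearson r between pairs of genes, by distance in ID order, over 18 libraries (blue) and for deviations from the 6 group means (red). Adjacent members have the highest median over libraries (0.21), which falls to 0.05 in the deviations.

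Strongly correlated neighbours were few. Of the 87 adjacent pairs 9 (10.3%) had r over 0.7, against 8.9% of all consecutive pairs. In 3 of the 9 the divided counts of the pair summed to whole numbers, so RSEM had divided reads between the 2 genes. A further pair of the 9, DCAR_010709 with DCAR_010710 (0.76), shared reads with DCAR_010711 in the dP1 POP and the pP POP. The highest were DCAR_010769 with DCAR_010770 (0.97), DCAR_010707 with DCAR_010708 (0.96), DCAR_010710 with DCAR_010711 (0.96) and DCAR_010641 with DCAR_010642 (0.93). The first 3 are the pairs whose divided counts summed to whole numbers. DCAR_010642 shared reads with DCAR_010644, and in the pP POP with DCAR_010641 as well. Among pairs with whole counts throughout, DCAR_010789 with DCAR_010790 had r = 0.88 (0.44 in the deviations) and DCAR_010763 with DCAR_010764 had 0.71 (0.19). DCAR_010789 and DCAR_010790 were called higher in the dP1 POP, at 19.3, 16 and 17.7 CPM against 9.61, 9.46 and 11.3 and at 11.4, 11.9 and 16.5 against 6.89, 7.42 and 6.58. Their calls (adjusted p = 0.0348 and 0.037) were lost without any library but the POP of root 2 (up to 0.123 and 0.121). Counting by strand is not stated, so reads of overlapping or antisense neighbours cannot be told apart.

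In the sign of the tissue difference neighbours were little more alike than the split of signs alone gives. In dP1 31 of 57 adjacent pairs (54.4%) had the same sign, where the split of signs alone gives 50.8%, and 53.0% of all consecutive pairs did. In dP2 it was 44 of 76 (57.9%), against 50% from the split and 54.1% over all pairs, and in pP 27 of 57 (47.4%), against 50.2% and 52.9%. Both neighbours were called in 5 pairs in dP1 and 2 in dP2, and in all 7 the sign was the same. In 3 of the 7 (DCAR_010710 with DCAR_010711 in dP1, and DCAR_010707 with DCAR_010708 and DCAR_010769 with DCAR_010770 in dP2) RSEM had divided reads between the neighbours, so their signs are not independent. The same limit holds for DCAR_010709 with DCAR_010710 in dP1, where reads were divided in a group with DCAR_010711. Over all genes 317 of 480 such pairs had the same sign in dP1 and 188 of 248 in dP2.

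A single member was on in a root and off in another of the same set. In dP1 root 1 DCAR_010788 held 14.9 CPM in the NPIP and 2.1 in the POP, and had no read in the 16 other libraries. Over all genes 103 met this rule in dP1, 131 in dP2 and 53 in pP.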

How the data were processed

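RNA was sequenced from 18 libraries, 3 roots in each of 6 groups. Per the labels and the study's methods, the authors trimmed 100-nt single-end reads (Trimmomatic 0.32), mapped them with Bowtie2 and deposited RSEM expected counts and TPM per gene of the V1.0 annotation. RSEM divides reads that fit several genes, and 29 members (12.8%) had a count that was not whole. Whether counting used strand is not stated. Expected counts were rounded and fitted with edgeR 4.0.16 (R 4.3.3) by its quasi-likelihood test, with TMM scaling, genes at 1 CPM or more in at least 3 libraries (of 6 within a set, of 18 across sets) and Benjamini-Hochberg adjustment. DESeq2 1.42.0 was an alternative. Correlations used log2(CPM + 1). Scripts were tested on simulated data. The depth limits low members most: intervals and floors of 3 reads cover counting error only. The study dissected both tissues from each root, and the POP and NPIP libraries of 1 number in a set were taken as 1 root. For numbers 1 and 3 of pP this is in doubt. Deviations of same-numbered libraries correlated at 0.329 to 0.441 in dP1 and 0.308 to 0.552 in dP2, but at -0.25, 0.594 and -0.088 in pP, where the POP of root 1 went with the NPIP of root 3 (0.611) and the POP of root 3 with the NPIP of root 1 (0.438). Roots are the replicates.

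The members and lists were chosen with earlier results of these data known. Genes were named by a rule: those called in 2 or 3 sets, the largest changes (at mean log2 CPM of 2 or more) in each contrast, the 5 highest by TPM, members on in a set or root and off in another, the 4 most correlated adjacent pairs and runs of at least 3 called neighbours, called members within 10 IDs of DcMYB7, and the 5 most like it. DCAR_010661, DCAR_010681, DCAR_010719, DCAR_010721, DCAR_010724, DCAR_010742, DCAR_010743, DCAR_010763, DCAR_010765, DCAR_010789, DCAR_010790, DCAR_010795, DCAR_010816, DCAR_010850 and the stretches without expression were chosen after their values were seen. Alternatives were other size factors, DESeq2, edgeR's likelihood ratio test, other filters, the root as a block, 1 fit of 18 libraries and each library left out.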

Additional observations from a re-analysis of the deposited data

Results flagged for a closer look

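In 4 members the difference between POP and NPIP differed between dP2 and dP1 by the test of that difference (edgeR's quasi-likelihood test, adjusted over all genes). The difference of the log2 fold changes was 5.80 for DCAR_010691, 4.37 for DCAR_010721, -1.95 for DCAR_010755 and 1.67 for DCAR_010874. DCAR_010691 stood higher in the NPIP in 3 of 3 dP1 roots and higher in the POP in 3 of 3 dP2 roots, and DCAR_010755 did the reverse. In dP2 neither difference between the tissues passed the test by itself. Each of the 4 was lost in at least 3 of the 12 fits that left out a library, and family and growing site changed together with the set.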

How the results depend on the processing

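Counts of members called moved with the tool where they were small. With edgeR's likelihood ratio test they were 27 for the tissues of dP2, 11 for those of pP, 6 and 13 for dP1 against pP in the POP and the NPIP, and 11 for the difference of tissue effects between dP2 and dP1. With DESeq2 they were 29, 16, 7, 15 and 12. Without a filter on low counts pP had 8 and the POP of dP1 against pP 0. In 1 fit of 18 libraries dP1 had 38 and pP 19, and with the 10 listed genes added back pP had 9. With the root as a block, dP2 had 25, dP1 31 and pP 5, and the tissue effects of dP2 and pP differed in 1 member. Among the calls of named members the block ended those of DCAR_010721, DCAR_010755 and DCAR_010795 given above and no other. With numbers 1 and 3 exchanged in the pP NPIP, a pairing chosen after seeing the data, the block gave 19. For contrasts between sets no paired analysis was possible because each root belongs to 1 set.

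With each library left out in turn, counts ranged from 14 to 32 in dP1, 4 to 20 in dP2 and 0 to 6 in pP for the tissues. In the POP they ranged from 0 to 1 (dP1 against pP), 25 to 38 (dP2 against pP) and 32 to 40 (dP2 against dP1), and in the NPIP from 1 to 6, 34 to 41 and 45 to 51. For the differences of tissue effects they ranged from 0 to 1 (dP2 against pP) and 0 to 8 (dP2 against dP1). The share of adjacent pairs with the same sign was 51.0% in dP2 and 54.8% in pP when pairs below a mean log2 CPM of 2 were dropped. The median r of adjacent members stayed between 0.17 and 0.24. Of 1726 refits of the 159 calls of named members, 274 lost the call and 0 changed sign. The causes of these changes were not tested. With 3 roots a group and members of few reads, small differences were not detectable.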
